A study of Mus musculus with 9 samples.

Results

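The DNA methylation and Polycomb regulators described here are 10 genes chosen by symbol: Dnmt1, Dnmt3a, Dnmt3b, Uhrf1, Tet1, Tet2, Tet3, Ezh2, Bmi1 and Asxl1. They are 10 of the 56262 genes counted, and all 10 were among the 16595 genes that passed the filter on low counts. Each member had between 634 counts (Tet2) and 13621 counts (Dnmt1) in its lowest and its highest library.

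RNA was sequenced from 9 libraries of sorted mouse cells that the labels call long-term hematopoietic stem cells (LT-HSCs), the most primitive self-renewing blood-forming cells. The mice of all 3 groups were wild-type C57BL/6. The 5-FU+FMT group (3 libraries) received 5-fluorouracil (5-FU, a pyrimidine analog that kills dividing cells) at 250 mg/kg and then the agent written FMT, which the labels do not spell out, at 5 mg/kg by vein on days 1, 4 and 7, with harvest on day 8. The 5-FU+Saline group (3 libraries) received the same 5-FU dose and saline, also with harvest on day 8, and the Control group (3 libraries) was untreated. The sort was for lineage-negative, Sca1-positive, c-Kit-positive, CD150-positive cells, with a last label written C48-. Whether each library is 1 mouse or a pool is not given, so the p-values below measure the spread between these libraries, which may be technical.

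As background, Dnmt1 copies CpG methylation onto the new strand behind the replication fork, guided by Uhrf1, which binds hemimethylated DNA. Dnmt3a and Dnmt3b place methyl groups on unmethylated sites, and the Tet enzymes oxidise 5-methylcytosine as a step towards its removal. Ezh2 is the H3K27 methyltransferase of Polycomb repressive complex 2 (PRC2), Bmi1 is a RING-finger subunit of PRC1, and Asxl1 is the cofactor of the Bap1 deubiquitinase, which takes ubiquitin off histone H2A. In blood, DNMT3A, TET2 and ASXL1 are the genes most often mutated in human clonal hematopoiesis, and Bmi1 is needed for self-renewal of mouse hematopoietic stem cells.

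Promoter sequence is shown because E2F transcription factors, which drive genes of DNA replication, are known regulators of several of these genes. Windows of 300 bases, from 250 bases before to 50 after each RefSeq start (GRCm38.p6, the mm10 assembly), were searched on both strands for the letters TTTCCCGC, TTTCGCGC, TTTGCCGC and TTTGGCGC, E2F-type motifs chosen with the expression results known. Such letters stood in 744 of 32851 windows (2.26%), or in 704 of 27025 genes (2.6%). All 10 members had at least 1 window, and the letters were found in 1 of 3 windows of Dnmt1, 1 of 2 of Uhrf1 and the 1 window of Ezh2. The RefSeq starts of those windows lie 7265, 992 and 311 bases inside the gene as counted here. The letters CCAAT, in 37.4% of all windows, were found for Dnmt1, Uhrf1, Tet3 and Ezh2, and TTTGAA or TTCGAA, in 19.2%, for Dnmt1, Dnmt3b and Asxl1. The stretches that hold the E2F-type letters, the rarest searched, are shown along each gene's strand, 5′ to 3′, with the motif in capitals; positions count from the RefSeq start. The first Dnmt1 stretch lies at chr9:20952824-20952853 (minus strand), with the motif on the opposite strand starting at -219. The second lies at chr9:20952574-20952601 (minus strand), with the motif at position 34. The Uhrf1 stretch lies at chr17:56304072-56304191 (plus strand), with the motif at position -185. The Ezh2 stretch lies at chr6:47595009-47595038 (minus strand), with the motif at position 4.
Dnmt1, upstream: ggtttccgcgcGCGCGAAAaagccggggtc
Dnmt1, downstream: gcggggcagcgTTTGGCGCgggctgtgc
Uhrf1: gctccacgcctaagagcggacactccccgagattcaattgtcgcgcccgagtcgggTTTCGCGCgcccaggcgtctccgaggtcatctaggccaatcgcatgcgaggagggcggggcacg
Ezh2: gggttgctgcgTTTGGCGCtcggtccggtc
A match is a description of letters in a window and not a binding site. The same windows differed widely in CpG content. Tet2 had 57 CpG dinucleotides in its 300-base window, more than 99.8% of all windows, and Dnmt3a had 46 and 47 in 2 of its 3 windows, against a median of 7 over all windows. The windows that hold the E2F-type letters had 33 (Dnmt1), 33 (Uhrf1) and 31 (Ezh2). Each of the E2F-type letter strings contains a CpG, so 2.26% of all windows is not the share among windows of like CpG content, which was not counted.

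Several facts of the whole series stand beside every result below. Library totals lay between 11098031 and 19270976 counts, and rank correlations across genes were 0.993 to 0.994 within groups and 0.947 to 0.983 between groups. All 15 proliferation genes listed were higher in 5-FU+Saline than in Control libraries, lower in 5-FU+FMT than in 5-FU+Saline libraries and higher in 5-FU+FMT than in Control libraries. Their summed level was 4460 to 4571 CPM (read-pair counts scaled to library size by TMM) in 5-FU+FMT, 5743 to 5822 CPM in 5-FU+Saline and 2833 to 2855 CPM in Control libraries. All 11 LT-HSC markers were detected, with summed levels of 1623 to 1670, 1318 to 1332 and 2124 to 2130 CPM in those 3 groups. Slamf1, which encodes the sorted CD150, averaged 24.4 CPM in 5-FU+FMT, 34.5 CPM in 5-FU+Saline and 8.35 CPM in Control libraries. Per exonic length, as CPM divided by kilobases of exon (RPKM), it averaged 3.96, 5.61 and 1.36, and Cd48, the gene of a marker that the last sort label may mean as negative, 39.3, 45.2 and 25.8. Markers of other cells moved with the groups. The 10 B cell markers summed to 470 to 518 CPM in 5-FU+FMT, 1010 to 1028 CPM in 5-FU+Saline and 61.6 to 63.5 CPM in Control libraries. The 6 progenitor markers summed to 1435 to 1519, 686 to 700.5 and 2745 to 2774 CPM, and the 10 neutrophil lineage markers to 939 to 1057, 191 to 207 and 2389 to 2428 CPM. Mpo is in both lists and averaged 469 CPM in 5-FU+FMT, 29.9 CPM in 5-FU+Saline and 1277 CPM in Control libraries. Without Mpo the progenitor sum was 988 to 1020 CPM, 656.0 to 672 CPM and 1467 to 1497 CPM, and the neutrophil lineage sum 495 to 557, 161 to 176 and 1113 to 1151 CPM. Single markers ran against these sums in 5-FU+Saline against Control libraries, where 2 of 6 progenitor markers (such as Cd48) and 3 of 10 neutrophil lineage markers (such as Ltf, at 4.94, 8.85 and 0.2004 CPM in 5-FU+FMT, 5-FU+Saline and Control) were higher. The 10 erythroid markers summed to 215 to 229, 47.5 to 49.7 and 487 to 493 CPM. The 9 stromal markers summed to 82.0 to 85.9 CPM in 5-FU+FMT, 262 to 269 CPM in 5-FU+Saline and 63.2 to 64.2 CPM in Control libraries. Most of the Control sum was Pdgfrb, at 27.6, 13.0 and 57.1 CPM, and the other 8 stromal markers summed to 55.1 to 58.7 CPM in 5-FU+FMT, 249 to 256 CPM in 5-FU+Saline and 5.07 to 7.98 CPM in Control libraries. The 7 endothelial markers summed to 182 to 189, 204 to 219 and 160.0 to 166 CPM. Most of their Control sum was Pecam1, at 87.7, 75.9 and 99.6 CPM, whereas Cdh5 averaged 3.06, 7.52 and 0.224 CPM. Against Control, 5 of these 7 were called higher and 1 lower in each treated group. The 8 T and NK cell markers summed to 50.6 to 56.1, 44.6 to 46.6 and 56.8 to 69.8 CPM. Nkg7 made up most of that last sum, at 39.0, 30.5 and 53.8 CPM, whereas Cd3e averaged 1.72, 2.47 and 0.428 CPM. Relative to Control, the calls for 7 of these 8 markers were 5 up and 2 down in each treated group, against the direction of the sum. The 7 macrophage markers summed to 43.0 to 46.2, 60.0 to 66.1 and 50.3 to 53.4 CPM, with members in both directions: C1qa averaged 2.04, 6.89 and 0.377 CPM and Csf1r 7.80, 4.396 and 15.3 CPM in 5-FU+FMT, 5-FU+Saline and Control libraries. No marker of these lists was at 0 in all 3 libraries of a group. Sex-linked RNA also differed: Xist, the RNA of the inactive X chromosome, lay at 659 to 695, 1183 to 1223 and 0.533 to 1.34 CPM, and Ddx3y, a Y-linked gene, at 98.0 to 102 CPM, 37.1 to 41.9 CPM and 164 to 172 CPM. Every treated library thus held both RNAs, at levels close between replicates (Xist 1201 ± 20.2 CPM, SD, in 5-FU+Saline). The spread between replicates, as a biological coefficient of variation common to all genes tested, was 3.74%. The p-values below may therefore not measure the spread between animals. Treatment, cell composition and the sex of the source mice cannot be told apart in this design, and their part in the members' differences was not tested. All 10 members are autosomal. In bulk RNA, fewer cells of a type and less RNA per cell cannot be told apart either.

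In 5-FU+Saline against Control libraries, 5 members rose (Dnmt1, Dnmt3b, Uhrf1, Ezh2 and Asxl1), 3 fell (Tet1, Tet2 and Tet3) and 2 did not pass the test (Dnmt3a and Bmi1). The test was edgeR's quasi-likelihood test with Benjamini-Hochberg adjustment over all genes, called at an adjusted p below 0.05, and it called 65.5% of all genes in this comparison, 32.8% as higher and 32.7% as lower. CPM ranges of the groups were apart for 9 members (all but Bmi1) and for 67.8% of all genes. With FMT, in 5-FU+FMT against 5-FU+Saline libraries, 2 members rose (Tet1 and Tet2), 4 fell (Dnmt1, Dnmt3b, Uhrf1 and Ezh2) and 4 did not pass. Of all genes 36.9% were called there, 17.7% as higher and 19.2% as lower, and ranges were apart for 8 members and for 46.3% of all genes. Against Control libraries, 4 members rose in 5-FU+FMT libraries (Dnmt1, Dnmt3b, Uhrf1 and Ezh2), 3 fell (the Tet genes) and 3 did not pass. Of all genes 46.6% were called, 25% as higher and 21.6% as lower, and ranges were apart for 7 members and for 52.7% of all genes. The split into higher and lower turned over with upper-quartile scaling (3315 higher and 4559 lower, against 4151 and 3584 with TMM). In 5-FU+Saline against Control libraries that scaling gave 4661 higher and 6210 lower, against 5443 and 5429 with TMM. In 5-FU+FMT against 5-FU+Saline libraries it gave 3136 higher and 2972 lower, against 2945 and 3178. The counts of 8, 6 and 7 members called of 10 are read against those shares, and nothing is claimed from the counts alone. The median log2 fold change of the members was 0.07, -0.05 and 0.01 in the 3 comparisons, and that of all genes -0.02, 0.01 and -0.01. Since each pair of comparisons shares a group, their values are given side by side and are not independent. The 5-FU+FMT mean lay between the 5-FU+Saline and Control means for 8 of the 10 members, all but Dnmt3a and Bmi1. The share of all genes with that order was not counted, so nothing particular to the members is read from it. Of the summed lists above, all but the macrophage markers also had the 5-FU+FMT mean between the other means.

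**Figure D1:**
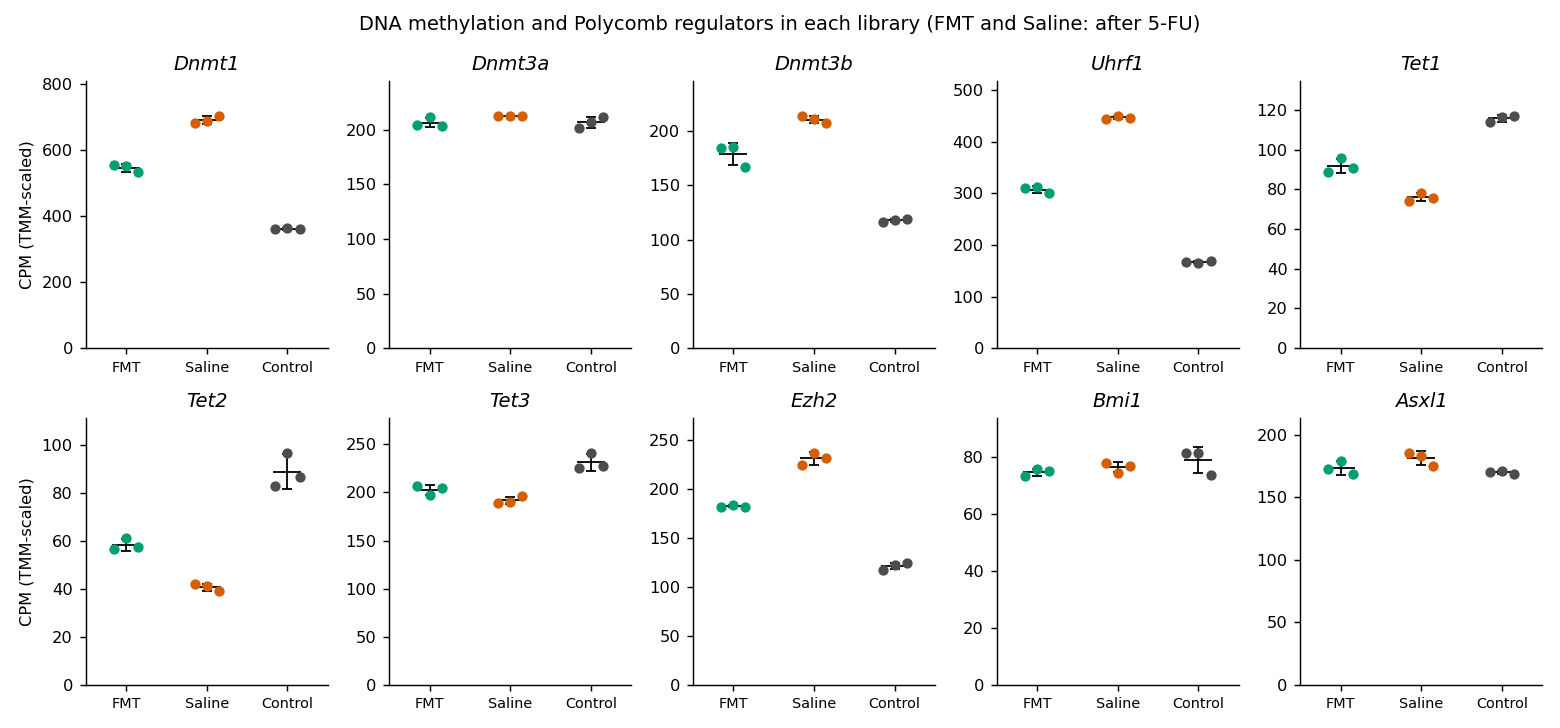
Level of each regulator in CPM (y axes, each from 0) in the 3 libraries of 5-FU+FMT (labelled FMT), 5-FU+Saline (labelled Saline) and Control; points are libraries, and the dash and bars are the mean and SD of 3. Dnmt1, Dnmt3b, Uhrf1 and Ezh2 were highest in every 5-FU+Saline library, Tet1, Tet2 and Tet3 were highest in every Control library, and Dnmt3a, Bmi1 and Asxl1 lay within a narrow range.

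Uhrf1, the guide of maintenance methylation, had the largest change among the members. Uhrf1 (ENSMUSG00000001228.14, mm10 chr17:56303321-56323486, plus strand) had 310.1, 311.7 and 300.2 CPM in 5-FU+FMT libraries, 444.3, 450.2 and 446.8 CPM in 5-FU+Saline libraries, and 167.8, 165.1 and 169.6 CPM in Control libraries. The 3 groups did not overlap, and the gap between any 2 groups was many times the spread within them. In 5-FU+Saline against Control libraries Uhrf1 rose by a log2 fold change of 1.42 ± 0.0304 (SE, adjusted p = 1.73e-53), or 2.67-fold. It fell by 0.54 ± 0.0286 on the log2 scale in 5-FU+FMT against 5-FU+Saline libraries (adjusted p = 1.18e-27), and in 5-FU+FMT against Control libraries it was higher, by 0.87 ± 0.0311 (adjusted p = 2.43e-38). This was the largest fold change of the 10 members in each of the 3 comparisons. In size it stood above that of 89.5%, 83.0% and 89.9% of all genes in those 3 comparisons, in the same order.

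Dnmt1 (ENSMUSG00000004099.16, chr9:20907209-20959888, minus strand) had 554.9, 551.6 and 533.1 CPM in 5-FU+FMT libraries, 681.4, 686.5 and 703.3 CPM in 5-FU+Saline libraries and 359.5, 363.2 and 360.1 CPM in Control libraries. Again no library of one group entered the range of another. The log2 fold change was 0.94 ± 0.0265 in 5-FU+Saline against Control libraries (1.91-fold, adjusted p = 2.02e-45), -0.34 ± 0.0258 in 5-FU+FMT against 5-FU+Saline libraries (adjusted p = 5.35e-19) and 0.60 ± 0.0268 in 5-FU+FMT against Control libraries (adjusted p = 4.11e-32). Per exonic length, Dnmt1 and its guide were close to each other. Dnmt1 averaged 74.1 ± 1.60, 93.6 ± 1.55 and 48.9 ± 0.272 RPKM (SD, n = 3 each) in 5-FU+FMT, 5-FU+Saline and Control libraries, and Uhrf1 72.2 ± 1.47, 105 ± 0.695 and 39.3 ± 0.538 RPKM. The ratio of Dnmt1 to Uhrf1 was therefore not constant: it was 1.03 ± 0.00576 in 5-FU+FMT, 0.891 ± 0.0152 in 5-FU+Saline and 1.24 ± 0.0233 in Control libraries, with no overlap between groups. An exact permutation test of 3 against 3 libraries cannot go below p = 0.1, so ratios are given without a test.

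Of the de novo methyltransferases, Dnmt3b moved and Dnmt3a did not pass the test in any comparison. Dnmt3b (ENSMUSG00000027478.15, chr2:153649450-153687730, plus strand) had 184.3, 185.5 and 167.3 CPM in 5-FU+FMT libraries, 214.0, 210.7 and 207.2 CPM in 5-FU+Saline libraries and 116.4, 117.8 and 119.0 CPM in Control libraries. The groups were apart, with 5-FU+FMT replicate 3 the lowest of its group but still above every Control library. The log2 fold change was 0.84 ± 0.0376 in 5-FU+Saline against Control libraries (1.79-fold, adjusted p = 1.07e-32), -0.23 ± 0.0358 in 5-FU+FMT against 5-FU+Saline libraries (adjusted p = 9.76e-08) and 0.60 ± 0.0384 in 5-FU+FMT against Control libraries (adjusted p = 2.15e-23).

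Dnmt3a (ENSMUSG00000020661.15, chr12:3806007-3914443, plus strand) had 205.0, 211.6 and 203.3 CPM in 5-FU+FMT libraries, 212.6, 212.9 and 212.6 CPM in 5-FU+Saline libraries and 201.9, 207.4 and 211.7 CPM in Control libraries. All 3 of the 5-FU+Saline values lay above the other 6, but by less than the spread within those groups. The fold was 1.03 in 5-FU+Saline against Control libraries (95% interval 0.981 to 1.07, adjusted p = 0.306), 0.971 in 5-FU+FMT against 5-FU+Saline libraries (0.929 to 1.02, adjusted p = 0.332) and 0.997 in 5-FU+FMT against Control libraries (0.953 to 1.04, adjusted p = 0.938). An exon of its antisense gene Dnmt3aos shares 133 bases with Dnmt3a (0.799% of its exonic length) and the counting shows no strand option, but Dnmt3aos itself had 2 to 9 counts per library.

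Summed per length, the 3 methyltransferases reached 122 ± 3.75 RPKM in 5-FU+FMT, 148 ± 0.916 RPKM in 5-FU+Saline and 84.4 ± 0.664 RPKM in Control libraries (SD, n = 3 each). Dnmt1 made up 61.0%, 63.4% and 58.0% of that sum, Dnmt3b 28.8%, 27.9% and 27.3%, and Dnmt3a 10.2%, 8.66% and 14.7%. Dnmt3b thus exceeded Dnmt3a per length in every library: the ratio of Dnmt3a to Dnmt3b was 0.341 to 0.373 in 5-FU+FMT, 0.305 to 0.315 in 5-FU+Saline and 0.532 to 0.546 in Control libraries. The gap depends on the 16642 exonic bases that the annotation gives Dnmt3a against 5106 for Dnmt3b, since RPKM divides by the merged length of all annotated exons.

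**Figure D2:**
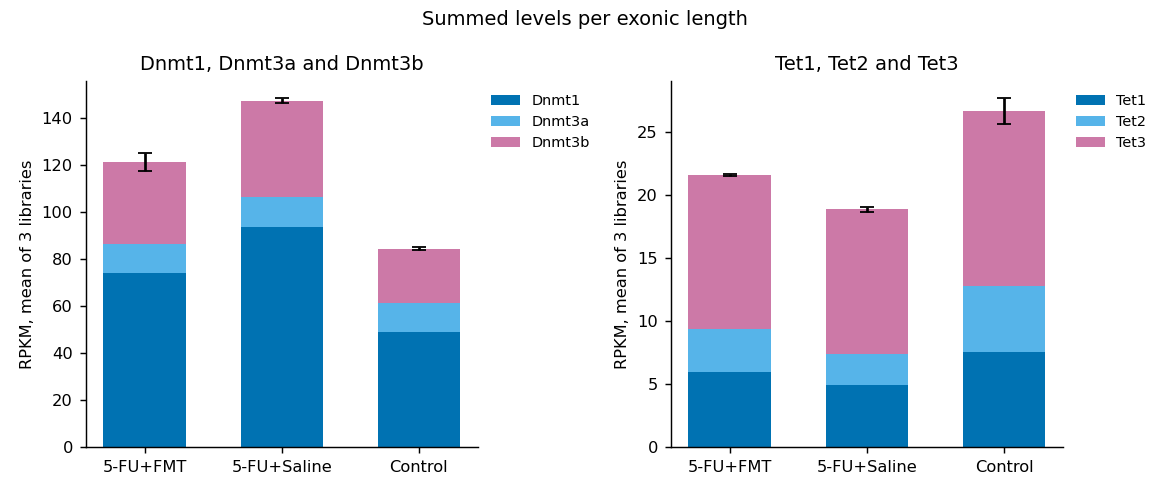
Mean RPKM (y axes) of the DNA methyltransferases and of the Tet enzymes stacked for 5-FU+FMT, 5-FU+Saline and Control; the bar on each column is the SD of the sum over 3 libraries. The methyltransferase sum was highest in 5-FU+Saline at 148 RPKM, where the Tet sum was lowest at 18.8 RPKM.

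The Tet dioxygenases went the other way from Dnmt1, and Tet2 moved most. Tet2 (ENSMUSG00000040943.12, chr3:133463679-133545139, minus strand) had 56.4, 61.0 and 57.3 CPM in 5-FU+FMT libraries, 41.9, 41.0 and 38.9 CPM in 5-FU+Saline libraries and 82.8, 96.7 and 86.7 CPM in Control libraries. The groups did not overlap, and the Control libraries spread most, with replicate 2 the highest. The log2 fold change was -1.13 ± 0.0588 in 5-FU+Saline against Control libraries (2.18-fold lower, adjusted p = 9.50e-29), 0.52 ± 0.0611 in 5-FU+FMT against 5-FU+Saline libraries (1.44-fold, adjusted p = 2.95e-11) and -0.60 ± 0.0572 in 5-FU+FMT against Control libraries (adjusted p = 5.20e-15). An antisense gene, Gm42567, shares 43 exonic bases with Tet2 (0.255%).

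Tet1 (ENSMUSG00000047146.17, chr10:62804570-62908996, minus strand) had 88.6, 95.8 and 90.6 CPM in 5-FU+FMT libraries, 74.1, 78.3 and 75.8 CPM in 5-FU+Saline libraries and 113.7, 116.5 and 117.0 CPM in Control libraries. These groups were also apart. The log2 fold change was -0.61 ± 0.0458 in 5-FU+Saline against Control libraries (adjusted p = 5.39e-20), 0.27 ± 0.0468 in 5-FU+FMT against 5-FU+Saline libraries (adjusted p = 2.02e-06) and -0.34 ± 0.0456 in 5-FU+FMT against Control libraries (adjusted p = 1.71e-09).

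Tet3 (ENSMUSG00000034832.15, chr6:83362373-83459084, minus strand) moved least of the 3, with 207.2, 197.0 and 204.5 CPM in 5-FU+FMT libraries, 189.4, 190.2 and 196.1 CPM in 5-FU+Saline libraries and 225.0, 241.4 and 227.1 CPM in Control libraries. The ranges of 5-FU+FMT and 5-FU+Saline almost touched, between 197.0 and 196.1 CPM, and every Control library lay above both. Tet3 fell in 5-FU+Saline against Control libraries by 0.27 ± 0.0334 on the log2 scale (adjusted p = 8.50e-11) and in 5-FU+FMT against Control libraries by 0.19 ± 0.0336 (adjusted p = 2.82e-06). Tet3 missed the threshold in 5-FU+FMT against 5-FU+Saline libraries, with a fold of 1.06 (95% interval 1.01 to 1.11, adjusted p = 0.0541), and 5 of 17 alternative settings called it higher (adjusted p = 0.0154 to 0.201 over the 17), among them the fit without 5-FU+FMT replicate 2 (adjusted p = 0.0316).

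Per length, Tet2 and Tet1 were the lowest 2 of the 10 members in every group. That rank depends on the annotated exonic lengths, 16870 bases for Tet2 and 15457 for Tet1 against 3974 for Bmi1. In CPM, Bmi1 was the lowest member in Control libraries (78.7, against 88.7 for Tet2), and Tet2 was the lowest in 5-FU+FMT and 5-FU+Saline libraries. Tet2 averaged 3.45 ± 0.145 RPKM in 5-FU+FMT, 2.41 ± 0.0903 RPKM in 5-FU+Saline and 5.26 ± 0.427 RPKM in Control libraries, Tet1 5.93, 4.92 and 7.49 RPKM, and Tet3 12.2, 11.5 and 13.8 RPKM. Their sum was 21.5 ± 0.0671, 18.8 ± 0.177 and 26.6 ± 1.03 RPKM (SD, n = 3 each). The make-up of that sum differed: Tet2 held 16.03% ± 0.621 in 5-FU+FMT, 12.8% ± 0.585 in 5-FU+Saline and 19.8% ± 0.830 in Control libraries, and Tet3 56.4% ± 1.64, 61.1% ± 0.827 and 52.1% ± 0.330. The ratio of Tet2 to Tet3 was 0.269 to 0.307 in 5-FU+FMT, 0.197 to 0.219 in 5-FU+Saline and 0.364 to 0.397 in Control libraries.

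Among the Polycomb members, Ezh2 was the mover. Ezh2 (ENSMUSG00000029687.16, chr6:47530139-47595341, minus strand) had 182.1, 184.0 and 181.9 CPM in 5-FU+FMT libraries, 224.9, 237.5 and 232.1 CPM in 5-FU+Saline libraries and 117.9, 122.4 and 124.1 CPM in Control libraries. No ranges overlapped. The log2 fold change was 0.93 ± 0.0356 in 5-FU+Saline against Control libraries (adjusted p = 5.84e-37), -0.34 ± 0.0339 in 5-FU+FMT against 5-FU+Saline libraries (adjusted p = 5.77e-14) and 0.59 ± 0.0366 in 5-FU+FMT against Control libraries (adjusted p = 7.48e-24).

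Bmi1 (ENSMUSG00000026739.13, chr2:18677018-18686629, plus strand) had 73.2, 75.6 and 74.9 CPM in 5-FU+FMT libraries, 77.6, 74.3 and 76.9 CPM in 5-FU+Saline libraries and 81.2, 81.4 and 73.6 CPM in Control libraries. All 3 ranges overlapped, and Control replicate 3 lay below 5 of the 6 treated libraries. The fold was 0.973 in 5-FU+Saline against Control libraries (95% interval 0.907 to 1.04, adjusted p = 0.4999), 0.977 in 5-FU+FMT against 5-FU+Saline libraries (0.911 to 1.05, adjusted p = 0.655) and 0.951 in 5-FU+FMT against Control libraries (0.885 to 1.02, adjusted p = 0.252). The Control libraries spread most, with an SD of 4.47 CPM on a mean of 78.7 CPM.

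Asxl1 (ENSMUSG00000042548.14, chr2:153345829-153404007, plus strand) had 172.4, 179.2 and 168.3 CPM in 5-FU+FMT libraries, 185.7, 183.3 and 175.0 CPM in 5-FU+Saline libraries and 170.3, 171.1 and 168.4 CPM in Control libraries. The 5-FU+FMT range overlapped both others, while 5-FU+Saline and Control were apart. It rose by 0.09 ± 0.0355 on the log2 scale in 5-FU+Saline against Control libraries (1.07-fold, adjusted p = 0.0172), the smallest change called among the members. That call was lost without Control replicate 3 (adjusted p = 0.0561), without 5-FU+Saline replicate 1 (adjusted p = 0.0688), with a stricter filter (adjusted p = 0.156) and with upper-quartile scaling (adjusted p = 0.696). Asxl1 had a fold of 0.957 in 5-FU+FMT against 5-FU+Saline libraries (95% interval 0.911 to 1.00, adjusted p = 0.153), and in 5-FU+FMT against Control libraries 1.02 (0.971 to 1.07, adjusted p = 0.531). The antisense gene 2500004C02Rik, at 4.80 to 7.38 CPM, shares 197 exonic bases with Asxl1 (2.65%), and the counting does not separate the strands there. Asxl1 and Dnmt3b lie 245442 bases apart on chromosome 2.

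**Figure D3:**
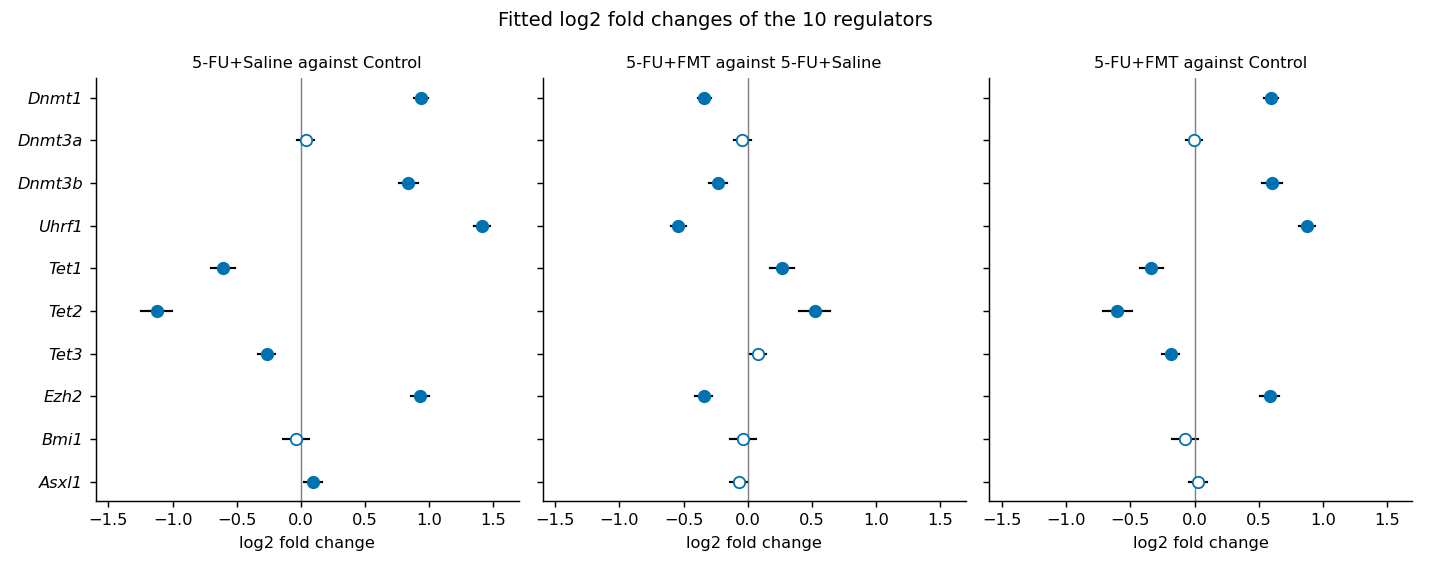
Fitted log2 fold change (x axes) of each regulator in the 3 comparisons, with 95% intervals as lines; filled points passed the adjusted p threshold of 0.05 and open points did not. Uhrf1 and Tet2 stand furthest from 0 on opposite sides, and Dnmt3a and Bmi1 sit near 0 in all 3 panels.

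Setting the proliferation genes beside the 4 members that rose in 5-FU+Saline and were lower with FMT gives their values together. Mki67, a marker of cycling cells, averaged 795 ± 4.14 CPM in 5-FU+FMT, 991 ± 10.01 CPM in 5-FU+Saline and 443 ± 15.01 CPM in Control libraries, and Pcna, the replication clamp to which Dnmt1 binds, 399.8 ± 4.27, 470.2 ± 14.2 and 330.2 ± 5.45 CPM (SD, n = 3 each). Ratios per length to both genes were added after the values were seen. Dnmt1 to Mki67 was 0.937 ± 0.0185 in 5-FU+FMT, 0.950 ± 0.00838 in 5-FU+Saline and 1.11 ± 0.0312 in Control libraries, whereas Dnmt1 to Pcna was 0.445 ± 0.00612, 0.478 ± 0.0217 and 0.356 ± 0.00529. Ezh2 to Mki67 was 0.346 ± 0.000383, 0.352 ± 0.00755 and 0.413 ± 0.0165, and Ezh2 to Pcna 0.164 ± 0.000991, 0.177 ± 0.00927 and 0.132 ± 0.00518. Dnmt3b to Mki67 was 0.444 ± 0.0239, 0.419 ± 0.0110 and 0.524 ± 0.0187, and Dnmt3b to Pcna 0.210 ± 0.00997, 0.211 ± 0.00304 and 0.168 ± 0.00438. For these 3 members the ratio to Mki67 was lower, and the ratio to Pcna higher, in all 6 treated libraries than in Control libraries, so the direction depends on the divisor. The 2 divisors are not alike, since Pcna changed least of the 15 proliferation genes in each comparison. In 5-FU+Saline against Control libraries its log2 fold change was 0.51, where the list median was 0.99 and Mki67 lay above that median. Uhrf1 to Mki67 was 0.913 ± 0.0158 in 5-FU+FMT, 1.07 ± 0.00893 in 5-FU+Saline and 0.894 ± 0.0414 in Control libraries, and Uhrf1 to Pcna 0.433 ± 0.00462, 0.536 ± 0.0183 and 0.286 ± 0.00839, highest in every 5-FU+Saline library by either divisor. The part of the proliferation genes in these members' differences was not tested.

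The wider PRC2 list (11 partner genes, all tested) rose in 8 genes and fell in 3 in 5-FU+Saline against Control libraries, with a median log2 fold change of 0.37, where 32.8% of all genes rose and 32.7% fell. With FMT, in 5-FU+FMT against 5-FU+Saline libraries, 2 rose and 6 fell (median -0.17), against 17.7% and 19.2% of all genes, and in 5-FU+FMT against Control libraries 8 rose and 2 fell (median 0.20), against 25% and 21.6%. The counts of the lists that follow are read against the same shares. The histone-binding subunits Rbbp7 and Rbbp4 had log2 fold changes of 0.70 ± 0.0303 (adjusted p = 1.68e-33) and 0.61 ± 0.0299 (adjusted p = 2.96e-30) in 5-FU+Saline against Control libraries; both also serve other chromatin complexes, and Rbbp7 is X-linked. Rbbp4 fell by 0.28 ± 0.0292 (adjusted p = 8.90e-13) and Suz12, a core PRC2 subunit, by 0.29 ± 0.0329 (adjusted p = 6.53e-12) in 5-FU+FMT against 5-FU+Saline libraries. Rbbp7 and Rbbp4 were higher in 5-FU+FMT than in Control libraries by 0.47 (adjusted p = 8.54e-23) and 0.33 (adjusted p = 1.26e-15). The 2 partners called higher in 5-FU+FMT than in 5-FU+Saline libraries were Ezh1, the other H3K27 methyltransferase, and Phf1, an accessory subunit. Ezh1 had log2 fold changes of -0.92 ± 0.0550 in 5-FU+Saline against Control libraries (adjusted p = 2.06e-25), 0.48 ± 0.0566 in 5-FU+FMT against 5-FU+Saline libraries (adjusted p = 5.36e-11) and -0.45 ± 0.0538 in 5-FU+FMT against Control libraries (adjusted p = 4.92e-11). Phf1 had -1.24 ± 0.0793 (adjusted p = 7.81e-24), 0.49 ± 0.0836 (adjusted p = 1.11e-06) and -0.75 ± 0.0772 (adjusted p = 1.58e-13) in the same order of comparisons.

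The 2 PRC2 methyltransferases moved in opposite directions. Ezh2 to Ezh1, per length, was 3.16, 3.25 and 3.16 in 5-FU+FMT libraries, 5.33, 5.71 and 5.80 in 5-FU+Saline libraries and 1.59, 1.56 and 1.53 in Control libraries. Ezh2 exceeded Ezh1 in every library, and the ratio was highest in 5-FU+Saline with no overlap between groups. In RPKM, Ezh2 averaged 27.4, 34.7 and 18.2 and Ezh1 8.59, 6.18 and 11.7.

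**Figure D4:**
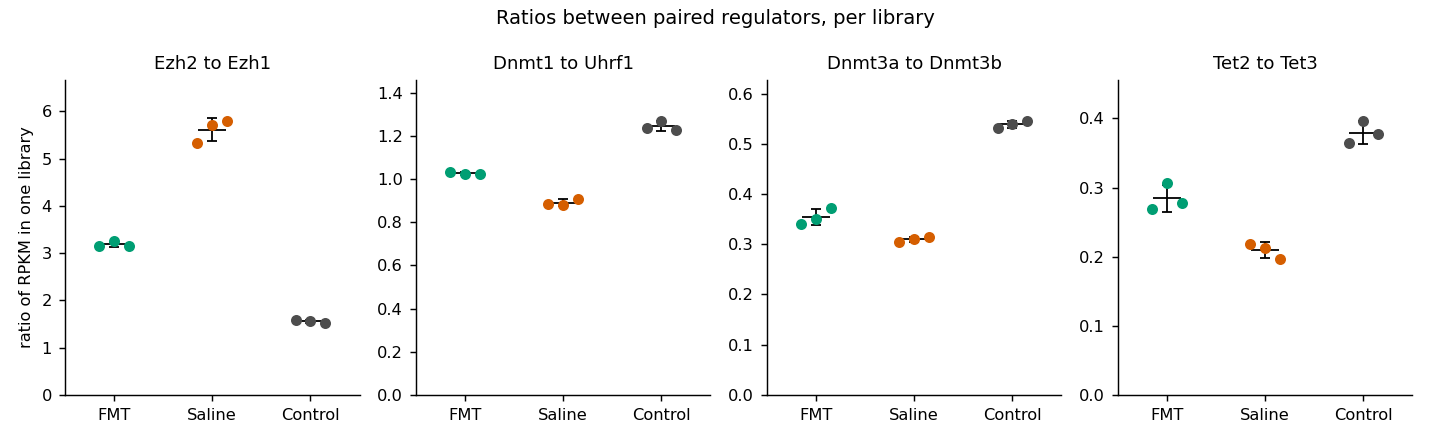
Ratio of RPKM within each library (y axes, from 0) for 4 pairs of regulators in 5-FU+FMT (FMT), 5-FU+Saline (Saline) and Control; points are libraries, and the dash and bars are the mean and SD of 3. The Ezh2 to Ezh1 ratio runs highest in 5-FU+Saline (5.33 to 5.80), while the other 3 ratios are lowest there.

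PRC1 genes around Bmi1 were mixed. Of 21 partners, 6 rose and 6 fell in 5-FU+Saline against Control libraries (median -0.04), 4 rose and 4 fell in 5-FU+FMT against 5-FU+Saline libraries, and 4 rose and 6 fell in 5-FU+FMT against Control libraries. The smallest p-values of this list were those of Cbx7, a chromodomain reader of H3K27 methylation, and of Phc3, a polyhomeotic subunit. Cbx7 averaged 82.9 ± 1.07 CPM in 5-FU+FMT, 58.8 ± 2.10 CPM in 5-FU+Saline and 137 ± 0.900 CPM in Control libraries (SD, n = 3 each). Its log2 fold change was -1.22 ± 0.0462 in 5-FU+Saline against Control libraries (adjusted p = 2.58e-37), 0.49 ± 0.0484 in 5-FU+FMT against 5-FU+Saline libraries (adjusted p = 3.60e-14) and -0.73 ± 0.0451 in 5-FU+FMT against Control libraries (adjusted p = 5.01e-24). Phc3 had -0.81 (adjusted p = 9.37e-26), 0.48 (adjusted p = 1.06e-13) and -0.33 (adjusted p = 8.56e-09) in the same 3 comparisons. Another reader, Cbx2, went up instead, by 0.44 ± 0.0820 in 5-FU+Saline against Control libraries (adjusted p = 2.93e-06) and by 0.30 ± 0.0841 in 5-FU+FMT against Control libraries (adjusted p = 0.00247). Yaf2, a subunit of variant PRC1, rose by 0.45 in 5-FU+Saline against Control libraries (adjusted p = 3.26e-07) and fell by 0.23 in 5-FU+FMT against 5-FU+Saline libraries (adjusted p = 0.00917). Smaller calls were Bcor, an X-linked corepressor of variant PRC1, which fell by 0.12 in 5-FU+FMT against 5-FU+Saline libraries (adjusted p = 0.00552, but 0.0631 without 5-FU+Saline replicate 3), and L3mbtl2, which rose by 0.21 in 5-FU+FMT against Control libraries (adjusted p = 0.00653, but 0.0649 with upper-quartile scaling). L3mbtl2 averaged 48.9, 52.8 and 42.2 CPM in 5-FU+FMT, 5-FU+Saline and Control libraries, highest in 5-FU+Saline. With upper-quartile scaling the 4 genes that rose in 5-FU+FMT against Control libraries were 1. The 4 genes that fell in 5-FU+FMT against 5-FU+Saline libraries were 2 without replicate 1 or 3 of either group.

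For the deubiquitinase complex around Asxl1, 8 of 9 partners were tested. In 5-FU+Saline against Control libraries 2 rose and 3 fell, in 5-FU+FMT against 5-FU+Saline libraries 3 rose and 2 fell, and in 5-FU+FMT against Control libraries 2 rose and 0 fell, although 2 fell with upper-quartile scaling. Foxk2, a forkhead factor bound to Bap1, and Hcfc1, an X-linked coregulator bound to Bap1, rose by 0.59 ± 0.0460 (adjusted p = 1.80e-19) and 0.47 ± 0.0273 (adjusted p = 2.45e-26) in 5-FU+Saline against Control libraries. Both fell with FMT, by 0.27 ± 0.0447 (adjusted p = 5.59e-07) and 0.20 ± 0.0269 (adjusted p = 4.89e-09) in 5-FU+FMT against 5-FU+Saline libraries. Both were higher in 5-FU+FMT than in Control libraries, by 0.32 (adjusted p = 2.02e-08) and 0.28 (adjusted p = 3.12e-14). The Asxl1 paralog Asxl2 had -0.15 ± 0.0401 (adjusted p = 0.000611) in 5-FU+Saline against Control libraries and 0.11 ± 0.0400 (adjusted p = 0.0218) in 5-FU+FMT against 5-FU+Saline libraries, the second of which was lost without 5-FU+FMT replicate 2 (adjusted p = 0.121), without 5-FU+Saline replicate 1 (adjusted p = 0.0917) and without 5-FU+Saline replicate 3 (adjusted p = 0.106). With all libraries kept, that second call was also lost with RLE scaling (adjusted p = 0.0515) and with DESeq2, another test. Mbd5 fell by 0.26 in 5-FU+Saline against Control libraries (adjusted p = 0.00238), and Mbd6 rose by 0.11 in 5-FU+FMT against 5-FU+Saline libraries (adjusted p = 0.00588). The 3 genes that rose with FMT were 1 without 5-FU+FMT replicate 2 or without 5-FU+Saline replicate 3, and also 1 with RLE scaling or DESeq2.

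Of the 2 demethylases that remove the Ezh2 mark, Kdm6b changed in all 3 comparisons. It averaged 245 ± 7.73 CPM in 5-FU+FMT, 165 ± 1.95 CPM in 5-FU+Saline and 459.5 ± 22.2 CPM in Control libraries (SD, n = 3 each). Its log2 fold change was -1.48 ± 0.0323 in 5-FU+Saline against Control libraries (2.79-fold lower, adjusted p = 5.21e-53), 0.57 ± 0.0333 in 5-FU+FMT against 5-FU+Saline libraries (adjusted p = 2.63e-25) and -0.91 ± 0.0314 in 5-FU+FMT against Control libraries (adjusted p = 5.11e-39). The X-linked Kdm6a did not pass the test in any comparison.

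Of 7 loci known as Polycomb targets, 5 were tested, and all 5 fell in 5-FU+Saline against Control libraries (median -0.51), where 32.7% of all genes fell. Of the 5, 4 are Hoxa genes of a single cluster on chromosome 6 and so are not separate loci. With FMT, in 5-FU+FMT against 5-FU+Saline libraries, 4 rose (median 0.22), and in 5-FU+FMT against Control libraries 3 fell (median -0.32). Hoxa9, a homeobox factor of stem and progenitor cells, had log2 fold changes of -0.88 ± 0.0377 (adjusted p = 5.83e-34), 0.52 ± 0.0383 (adjusted p = 7.63e-20) and -0.36 ± 0.0368 (adjusted p = 1.13e-13) in those 3 comparisons. Its partner Meis1 had -0.51 ± 0.0329 (adjusted p = 2.18e-23) in 5-FU+Saline against Control libraries and -0.32 ± 0.0329 (adjusted p = 1.43e-13) in 5-FU+FMT against Control libraries, and Hoxa5 rose by 0.37 ± 0.0641 in 5-FU+FMT against 5-FU+Saline libraries (adjusted p = 1.31e-06). Hoxa5 averaged 47.4, 36.6 and 64.8 CPM in 5-FU+FMT, 5-FU+Saline and Control libraries, so it stayed below Control in both treated groups. Cdkn2a, the cell cycle inhibitor locus repressed through Bmi1 in mouse stem cells, was too low to test, with 5 counts over the 5-FU+FMT libraries, 9 over the 5-FU+Saline libraries and 0 over the Control libraries. Hoxa9 and Meis1 are also expressed more in stem and progenitor cells than in B cells, and the progenitor and B cell marker sums given above moved with these groups. Their part in these differences was not tested.

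**Figure D5:**
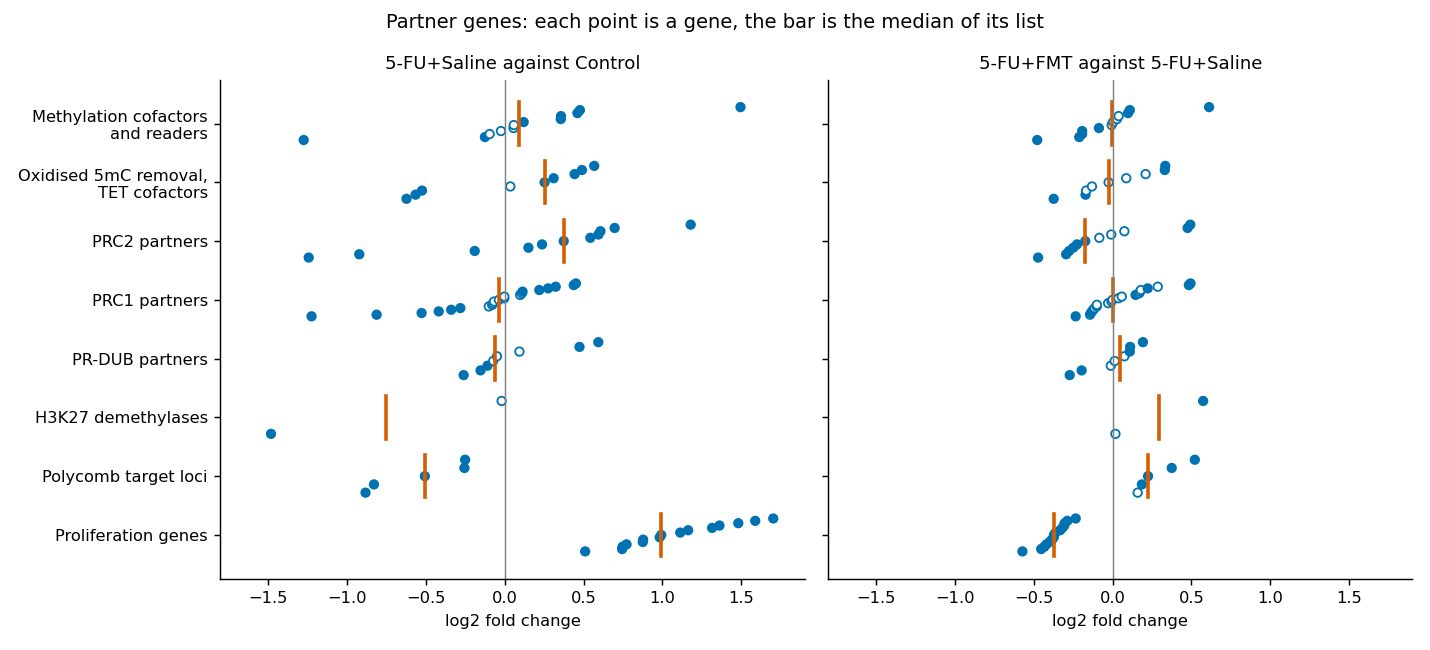
Log2 fold change (x axes) of every tested gene in 7 partner lists and in the proliferation list, for 5-FU+Saline against Control and 5-FU+FMT against 5-FU+Saline; filled points passed the adjusted p threshold of 0.05, open points did not, and the vertical bar is the median of the list. The PRC2 median is 0.37 and -0.17 in the 2 panels, the PRC1 median is near 0 in both, and all 15 proliferation genes are on 1 side in each.

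The remaining genes of DNA methylation followed no common direction. Of 12 tested cofactors and readers, 6 rose and 2 fell in 5-FU+Saline against Control libraries, 3 rose and 5 fell in 5-FU+FMT against 5-FU+Saline libraries, and 5 rose and 1 fell in 5-FU+FMT against Control libraries. Hells, a chromatin remodeler needed for DNA methylation in the mouse, had log2 fold changes of 1.49 ± 0.0444 (2.82-fold, adjusted p = 4.21e-44), -0.48 ± 0.0404 (adjusted p = 6.27e-17) and 1.02 ± 0.0461 (adjusted p = 7.58e-32) in those 3 comparisons. Trim28, a corepressor that recruits silencing enzymes, had 0.46 (adjusted p = 2.60e-27), -0.19 (adjusted p = 1.12e-09) and 0.27 (adjusted p = 8.11e-15). Zbtb4, a zinc-finger reader of methylated CpG, moved the other way, with -1.27 ± 0.0710 (adjusted p = 4.41e-27), 0.61 ± 0.0744 (adjusted p = 1.10e-10) and -0.66 ± 0.0685 (adjusted p = 1.84e-13). Mbd1, a methyl-CpG binding protein, had -0.12 (adjusted p = 0.00396, but 0.118 with no filter) in 5-FU+Saline against Control libraries and 0.10 (adjusted p = 0.0390) in 5-FU+FMT against 5-FU+Saline libraries, and leaving out any library of those 2 groups in the second comparison gave an adjusted p of 0.0601 to 0.108. With all libraries kept, that second call was also lost with RLE scaling (adjusted p = 0.0875), with no filter (adjusted p = 0.0822) and with DESeq2. The 3 genes of this list that rose with FMT were 1 without 5-FU+FMT replicate 3, 5-FU+Saline replicate 2 or 5-FU+Saline replicate 3, and also 1 with RLE scaling, no filter or DESeq2. The 5 that were higher in 5-FU+FMT than in Control libraries were 3 without 5-FU+FMT replicate 2.

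Of 9 tested genes that act on oxidised methylcytosine or serve the Tet enzymes, 5 rose and 3 fell in 5-FU+Saline against Control libraries, 2 rose and 2 fell in 5-FU+FMT against 5-FU+Saline libraries, and 4 rose and 3 fell in 5-FU+FMT against Control libraries. Tdg, the glycosylase that excises oxidised methylcytosine, rose by 0.57 ± 0.0535 (adjusted p = 1.47e-15) in 5-FU+Saline against Control libraries and fell by 0.37 ± 0.0524 (adjusted p = 9.76e-09) in 5-FU+FMT against 5-FU+Saline libraries. Idh2, which makes the 2-oxoglutarate that Tet enzymes use, had 0.44 ± 0.0330 (adjusted p = 2.36e-20), -0.17 ± 0.0323 (adjusted p = 9.97e-06) and 0.27 ± 0.0336 (adjusted p = 1.03e-10) in the 3 comparisons. Ogt, an X-linked glycosyltransferase that binds Tet proteins, had -0.56 ± 0.0272 (adjusted p = 7.56e-31), 0.33 ± 0.0273 (adjusted p = 1.20e-17) and -0.23 ± 0.0270 (adjusted p = 1.78e-11). Neil1, another DNA glycosylase, had -0.62 ± 0.0859 (adjusted p = 1.54e-09) in 5-FU+Saline against Control libraries and 0.33 ± 0.0875 (adjusted p = 0.00150) in 5-FU+FMT against 5-FU+Saline libraries, the second of which missed the threshold without 5-FU+FMT replicate 3 (adjusted p = 0.0564). Cxxc5, a CXXC zinc-finger protein, rose by 0.23 (adjusted p = 1.86e-05) and Idh1, which also makes 2-oxoglutarate, fell by 0.31 (adjusted p = 0.00180) in 5-FU+FMT against Control libraries. Cxxc5 averaged 108.7, 110.6 and 92.5 CPM and Idh1 23.6, 20.5 and 29.5 CPM in 5-FU+FMT, 5-FU+Saline and Control libraries. For both genes the 5-FU+Saline mean lay further from Control than the 5-FU+FMT mean did.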

How the data were processed

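The authors deposited counts of read pairs per gene in a separate file for every library. Trim Galore 0.6.5, HISAT2 2.2.1, SAMtools and featureCounts 2.0.1 and the build mm10 are named in the submitters' processing notes. GENCODE M25 exons were summed by gene, with no strand or multi-mapping option shown, per the file headers. The counts were analysed with edgeR 4.0.16 (limma 3.58.1, DESeq2 1.42.0, R 4.3.3): filterByExpr, TMM scaling, 1 quasi-likelihood fit of all 9 libraries, Benjamini-Hochberg adjustment over 16595 genes. All adjusted p-values are from this test. CPM and RPKM use TMM-scaled library sizes and the files' exonic lengths; means ± SD are over 3 libraries. Symbols matched 55141 of 56262 IDs. Promoter sequences are from RefSeq (GRCm38.p6). Figures used matplotlib 3.10.9 in Python 3.11.15. The scripts were tested on simulated counts.

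The members, the lists of partner genes and markers, and the motif were chosen with earlier results of these data known. Named were all members, the 2 called list genes of smallest p per direction and comparison, Mki67, Pcna, and 4 sort genes; Xist, Ddx3y, Cdkn2a, Kdm6a, single cell markers and overlapping antisense genes were named besides. Sort genes Kit (537, 410.5 and 754 CPM in 5-FU+FMT, 5-FU+Saline and Control) and Ly6a (108, 118 and 97.2 CPM) were detected. Most-alike genes were not sought.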

Additional observations from a re-analysis of the deposited data

How the results depend on the processing

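Each result was recomputed under 17 alternatives: RLE or upper-quartile factors, DESeq2, limma-voom, no filter, a stricter filter (5 CPM in 3 libraries), a replicate block, only the 6 libraries compared, and each of the 9 libraries left out. No member's called change reversed. Genes called higher in 5-FU+Saline against Control libraries ranged from 4371 to 5906 (5443 as reported), members called higher from 4 to 5 and members called lower from 3 to 4. With upper-quartile factors the median of all genes shifted to -0.10 in 5-FU+Saline against Control libraries, the members' median to -0.01, and Bmi1 was called lower there (-0.12, adjusted p = 0.0392) and in 5-FU+FMT against Control libraries (-0.14, adjusted p = 0.0223). Dnmt3a was called in 0 of 17 settings in every comparison (unadjusted p = 0.248, 0.202 and 0.909 as reported). Same-numbered libraries of different groups did not deviate together (r -0.00535 to 0.0157 over 9 pairs, and -0.0234 to 0.0140 over 18 pairs of unlike number). No pairing by number was seen, but the deviations also hold counting noise, so this cannot exclude one. With the replicate block, 5434 genes were called higher in 5-FU+Saline against Control libraries, and Tet3 passed in 5-FU+FMT against 5-FU+Saline libraries (0.08, adjusted p = 0.0460). Of the small list counts, 20 moved by over 1.5 times, among them PR-DUB partners higher in 5-FU+FMT against 5-FU+Saline libraries (1 with DESeq2, 3 as reported) and, with upper-quartile factors in 5-FU+FMT against Control libraries, PRC1 partners higher (1, not 4), PR-DUB partners lower (2, not 0) and methylation cofactors and readers higher (3, not 5) and lower (2, not 1). Whether depth limits the members that did not pass was not tested; the lowest member count in a library was 634 (Tet2).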
